A study of Mus musculus with 6 samples.

Results

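Endothelial cells were picked out of single-cell RNA-seq libraries of orthotopic mouse pancreatic tumours by 4 marker genes, and 133 of the 74546 cells in 4 libraries met the rule. A cell was a barcode with at least 500 UMIs (unique molecular identifiers, each counting 1 captured RNA molecule), more than 200 genes and under 10% of its UMIs from mitochondrial genes. An endothelial cell had at least 4 UMIs summed over Pecam1, Cdh5, Kdr and Emcn, with at least 2 of these 4 genes detected. It also had no UMI of the leukocyte gene Ptprc, under 0.2% of its UMIs from the macrophage genes C1qa, C1qb and C1qc, and under 1% from the neutrophil genes S100a8 and S100a9. These measured values chose the cells, so the levels of the 10 genes of the rule are given only as a description, and doublets were not removed by simulation.

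The tumours grew for 4 weeks in C57BL/6 mice aged 6 to 8 weeks, after injection into the pancreas of KPC cells, a pancreatic cancer line isolated from genetically engineered mice in which Pdx1-cre acts in the pancreas. Before injection the KPC cells had received a lentivirus that overexpresses mouse MLKL, the executioner of necroptosis (OE-MLKL), or the vector alone (OE-Vector). True endothelial cells therefore belong to the host and carried neither construct. As doublets were kept, barcodes chosen by the rule can also hold RNA of cancer cells, and some carried keratin UMIs. The labels list 3 tumours in each group. Cells of OE-Vector 1 and of OE-MLKL 1, 2 and 3 were analysed, and OE-Vector 2 and 3 were not analysed here. With 1 library labelled OE-Vector, the difference between single tumours and the difference between the groups cannot be told apart.

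Endothelial cells line every blood and lymphatic vessel, hold together through VE-cadherin (Cdh5) and claudin-5 (Cldn5), and take up vascular endothelial growth factor through VEGFR1 (Flt1), VEGFR2 (Kdr) and VEGFR3 (Flt4). In a growing tumour, VEGF from other cells binds VEGFR2 on sprouting tip cells, while angiopoietins act through the receptor Tek (Tie2). Leukocytes and circulating tumour cells hold on to endothelium through selectins and the adhesion molecules ICAM1 and VCAM1, and the study asked whether VEGFR2 differed with MLKL and how tumour cells adhere to endothelium. The study measured ICAM1 in tumour cells and tumour tissue, whereas the Icam1 values below are RNA of endothelial cells and do not bear on that measurement.

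The 4 libraries held 150591289 to 169978362 UMIs in all and 15382 to 23063 cells each. Values are given in the order OE-Vector 1, OE-MLKL 1, OE-MLKL 2 and OE-MLKL 3, and a level is in CPM, the UMIs of a gene as parts per 1000000 of all UMIs summed over the cells of that kind in 1 library. Pairs of libraries shared 73 to 134 cell barcodes and no endothelial barcode. Mlkl, the gene the lentivirus carries, did not follow the labels. Its level in the other Ptprc-negative cells, which include the cancer cells, was 15.4, 8.58, 12.5 and 19.6 CPM, and in endothelial cells it was 32.7, 9.22, 32.3 and 29.7 CPM. Ptprc-negative cells here and below had also passed the C1q and S100 limits of the rule, and the other ones failed its marker part. In both kinds of cell the library labelled OE-Vector lay within or above the range of those labelled OE-MLKL, so any direction below is one between libraries as labelled. Whether the lentiviral transcript ends in sequence that a 3′ library counts is not given in the sources used here.

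Endothelial cells were rare in every library, numbering 35, 23, 47 and 28. Their median depth was 11975, 7375, 6281 and 10689.5 UMIs per cell, and that of the other Ptprc-negative cells was 11787, 10997, 10385 and 13858. Endothelial sums therefore rested on 581205, 216908, 340186 and 370422 UMIs, and OE-MLKL 1 gave the thinnest of the 4. In OE-MLKL 1, 52084 of these UMIs lay in 1 cell with 5 marker UMIs, none of them Kdr, and 32 keratin UMIs. Summed levels of endothelial genes in that library are diluted by this cell. The median endothelial cell carried 37, 18, 15 and 47 UMIs of the 4 markers together, against the 4 the rule required. All 4 markers were detected in 31, 15, 38 and 24 cells. Cells just inside the threshold were few, with 1, 3, 4 and 0 endothelial cells at 4 or 5 marker UMIs, and just outside it 2, 10, 4 and 0 Ptprc-negative cells had 3. A further 12, 0, 6 and 18 cells met the marker part of the rule and failed only an exclusion, and 12, 0, 4 and 18 of them had a Ptprc UMI.

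**Figure D1:**
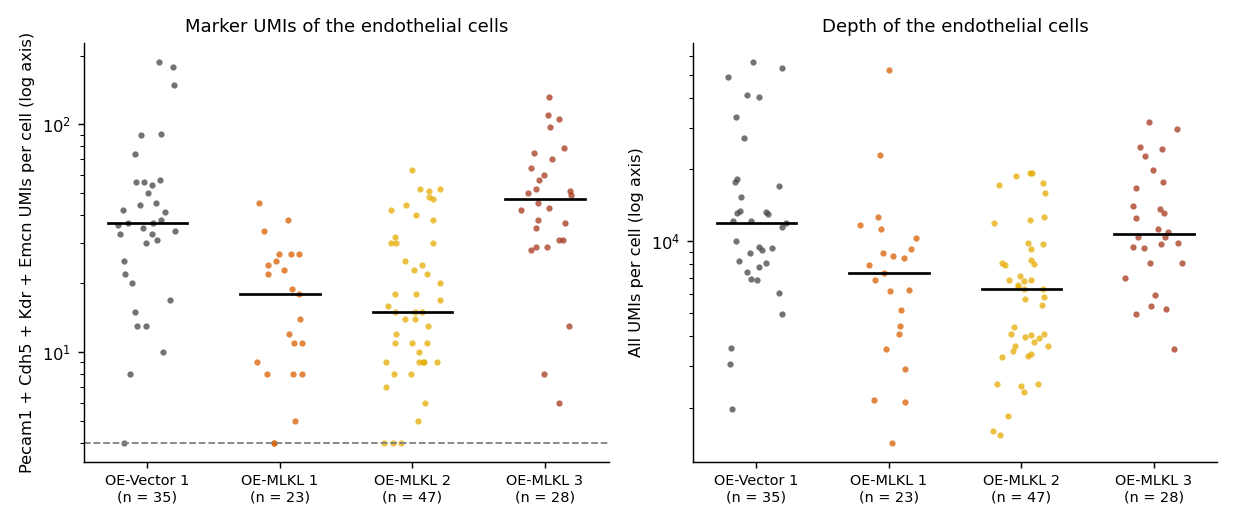
Each point is 1 endothelial cell, with its summed UMIs of Pecam1, Cdh5, Kdr and Emcn on the left (log axis, the line marks the 4 UMIs the rule required) and its total UMIs on the right (log axis), by library, with bars at the medians. Median marker UMIs were 37, 18, 15 and 47, and median total UMIs were 11975, 7375, 6281 and 10689.5.

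Leaving each marker out of the rule in turn, with the exclusions kept, showed how often cells chosen on the other 3 carried it. Of cells chosen without Pecam1, an adhesion molecule of the endothelial surface, 34 of 35, 18 of 19, 42 of 44 and 27 of 27 had a Pecam1 UMI. For Cdh5, the cadherin of endothelial junctions, the counts were 34 of 34, 19 of 20, 42 of 44 and 27 of 27. For Emcn, a sialomucin of capillaries and veins, they were 34 of 34, 18 of 20, 40 of 45 and 25 of 28. Kdr was found in 31 of 34, 18 of 23, 42 of 45 and 26 of 28 cells chosen without it, lowest in OE-MLKL 1 at 78.3% (exact 95% binomial interval 56.3 to 92.5%). In the other Ptprc-negative cells, which had median depths of 10383 to 13858 UMIs, a Pecam1 UMI was found in 0.998% to 3.22% of cells and a Kdr UMI in 0.252% to 0.723%.

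Genes that the rule did not use gave the same picture. All 18 endothelial genes listed outside the rule, among them Cldn5, Tie1, Flt1, Plvap and Vwf, were detected. Their summed level was 9711, 7238, 11505 and 9700 CPM in the endothelial cells and 54.3 to 100.05 CPM in the other Ptprc-negative cells. In OE-MLKL 1 the cell of 52084 UMIs held 39 of the 1570 UMIs of these genes. Markers of other cell types were also found. The 10 cancer cell markers, led by keratins, summed to 516 CPM in OE-Vector 1 and 319 to 373 CPM in the OE-MLKL libraries, against 1208 to 1901 CPM in the other Ptprc-negative cells, and 6, 3, 4 and 3 endothelial cells carried at least 5 keratin UMIs. Neutrophil markers summed to 1120, 1093, 979 and 810 CPM, against 893 to 1294 CPM in the other Ptprc-negative cells, which had passed the same C1q and S100 limits. Macrophage markers summed to 488 to 953 CPM, against 478 to 906 CPM in the other Ptprc-negative cells and 6113 to 9574 CPM in the barcodes of at most 100 UMIs that hold free RNA. Fibroblast markers summed to 1304 CPM in OE-Vector 1 and 82.3 to 148 CPM in OE-MLKL, and 723 of the 758 UMIs in OE-Vector 1 lay in 1 cell, without which the level was 62.1 CPM. Pericyte markers summed to 162, 341, 417 and 367 CPM, but 53 of 74 of their UMIs in OE-MLKL 1 and 66 of 136 in OE-MLKL 3 lay in 1 cell, and without the top cell of each library the levels were 141, 102, 315 and 198 CPM. In all, 5, 2, 3 and 4 endothelial cells carried at least 10 UMIs of fibroblast and pericyte markers together, and results that rest on them are given with and without them.

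The endothelial share of cells was 0.228% in OE-Vector 1 (exact 95% binomial interval 0.159 to 0.316%), and 0.125%, 0.204% and 0.159% in the libraries labelled OE-MLKL (0.162% ± 0.0397, SD, n = 3). OE-Vector 1 had the highest share, and the difference of -0.0652 percentage points had a p of 0.5 in a two-sided exact permutation test, where 1 library against 3 can give no p below 0.25. Under a stricter cell filter, a minimum of 1000 UMIs together with over 500 genes, OE-MLKL 2 (0.312%) lay above OE-Vector 1 (0.274%). As a share of Ptprc-negative cells the endothelial cells made up 0.971% in OE-Vector 1 and 0.512% ± 0.257 (SD, n = 3) in OE-MLKL (exact permutation p = 0.5). Intervals here and below cover counting error only, and the yield of endothelial cells from digested tumour was not measured.

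The first comparison set the endothelial cells against the other Ptprc-negative cells of the same tumours, to show what these cells express beyond the markers that chose them. Counts were summed per library and kind of cell and compared in edgeR's quasi-likelihood test with library as a block and Benjamini-Hochberg adjustment, and a gene was called at an adjusted p below 0.05. Of 15045 genes tested, 2119 were called higher (14.1%) and 2468 lower (16.4%) in endothelial cells. The split depended on the scaling, since the median log2 difference of all genes was -0.21 after TMM scaling and -0.11 with library size alone, where 2330 were called higher and 1985 lower. With DESeq2's size factors in the same test 2248 were higher and 2141 lower, and DESeq2's own test called 2164 higher and 1567 lower. Small differences below are to be read against those medians, and counts of called list members against the 14.1% higher and 16.4% lower of all genes.

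Of the 10 genes with the widest gaps, Mmrn1 (multimerin 1, found in lymphatic endothelium and platelets) came first, at a log2 difference of 12.88 ± 1.18, but its 83 UMIs lay in 2 cells, 10 in OE-Vector 1 and 73 in OE-MLKL 1, and OE-MLKL 2 and 3 had none. Gpihbp1, which anchors lipoprotein lipase on capillary endothelium, stood at 693, 945, 1519.8 and 645 CPM in endothelial cells and at 0.135 to 0.288 CPM in the other Ptprc-negative cells. Every library showed the gap, which came to 12.04 ± 0.25 on the log2 scale (± SE, edgeR adjusted p = 5.77e-23), and Gpihbp1 was detected in 119 of the 133 cells. Cldn5, the tight junction claudin of endothelium, stood at 1204, 821, 753 and 697 CPM against 0.177 to 0.504 CPM, a difference of 11.54 ± 0.20 (edgeR adjusted p = 3.37e-24), and was found in 114 cells. Adgrl4, an adhesion G protein-coupled receptor of vessels, averaged 385 CPM against 0.108 CPM and was found in 118 cells. Robo4, the endothelial member of the Robo receptors, averaged 154 CPM against 0.0557 CPM. Ldb2, Myct1, Cyyr1, She and the arterial transcription factor Sox17 were the others of the 10, with log2 differences of 10.82 to 11.56.

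The genes with the lowest fitted differences had no UMI in any endothelial cell, so their place in the order depends on the fit and each is given only by its bound. Tff2, a trefoil peptide of mucous epithelium, averaged 35.0 CPM in the other Ptprc-negative cells and was at least 12.7-fold lower in endothelial cells, taking 3 UMIs over all their sums as the floor. Angpt4, an angiopoietin, was at least 7.65-fold lower and Epb41l4a, a band 4.1 family gene, at least 7.19-fold lower. Clps, the pancreatic colipase, was at least 4.64-fold lower, and the mast cell chymase Cma1 at least 3.57-fold lower.

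Receptors for VEGF and angiopoietins were high in endothelial cells and their ligands were mixed, with 3 of the 6 in the list called higher and 3 lower, beside Angpt4 outside the list, which was also lower. Of the 12 genes of this list outside the rule, 7 were called higher and 4 lower, with a median log2 difference of 3.41, where 14.1% of all genes tested were called higher and 16.4% lower with a median of -0.21. Flt1, which encodes VEGFR1, stood at 924, 479, 961 and 872 CPM, against 18.5 to 35.7 CPM in the other Ptprc-negative cells (log2 difference 4.71 ± 0.14, edgeR adjusted p = 3.15e-20). Flt4, the VEGF-C receptor of lymphatic and sprouting vessels, stood at 74.0, 138, 52.9 and 86.4 CPM (log2 difference 9.62 ± 0.56). The angiopoietin receptor Tek stood at 43.0, 78.4, 47.0 and 75.6 CPM and its partner Tie1 at 296, 203, 256 and 262 CPM, with log2 differences of 8.92 ± 0.63 and 10.73 ± 0.22. These 4 receptors were higher in endothelial cells in 4 of 4 libraries.

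The neuropilin co-receptors did not share this pattern. Nrp1 was at 267, 179.8, 320.4 and 383 CPM in endothelial cells and at 336, 208, 358 and 550.3 CPM in the other Ptprc-negative cells, and was called lower by a log2 difference of -0.42 ± 0.13 (edgeR adjusted p = 0.0124). That difference is near the median of all genes, and the call was lost with library size alone (-0.32), without OE-MLKL 3 (-0.34), with no library block (-0.40), against all other cells (-0.18) and in cells with under 5% mitochondrial UMIs (-0.19). Nrp2 averaged 123 ± 67.6 CPM against 100.5 ± 30.8 CPM (SD, n = 4) and was not called (edgeR adjusted p = 0.569).

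Among ligands, Vegfa, the main ligand of VEGFR2, was low in endothelial cells at 34.4, 32.3, 14.7 and 13.5 CPM, below the 98.8, 59.4, 53.8 and 142 CPM of the other cells (log2 difference -2.01 ± 0.26, edgeR adjusted p = 6.78e-07). Vegfb (-1.26 ± 0.33) and Angpt1 (-3.10 ± 0.78, on 2 endothelial UMIs) were called lower too. The Vegfb call was lost with no library block (-1.28), and the fitted Angpt1 difference was -11.29 without OE-MLKL 2, which held both UMIs (a fit to 0 counts, and no bound), and -2.58 without OE-MLKL 3. Angpt2, the Tek ligand that endothelial cells themselves make, went the other way at 184, 96.8, 273 and 175.5 CPM against 0.550 to 1.49 CPM (log2 difference 7.71 ± 0.29, edgeR adjusted p = 6.96e-18). Pgf, placental growth factor, averaged 136 ± 27.1 against 29.2 ± 5.15 CPM (SD, n = 4, edgeR adjusted p = 1.15e-10), and Vegfc was called higher (5.06 ± 0.77) on 16 UMIs. Within this family the endothelial cells were high in Angpt2 and Pgf and low in Vegfa.

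Adhesion molecules for leukocytes and tumour cells formed the next group, with 8 of 11 called higher, none lower and a median log2 difference of 5.36. Icam1, an integrin ligand, was low, at 25.8, 36.9, 29.4 and 56.7 CPM in endothelial cells and 15.7, 4.45, 4.78 and 9.34 CPM in the other Ptprc-negative cells. The endothelial level was the higher one in each library, with a log2 difference of 2.05 ± 0.38 (edgeR adjusted p = 0.000116), although against all other cells, leukocytes included, the difference was 0.17 and was not called. Icam1 was detected in 6, 7, 5 and 11 cells, or 29 of 133. Icam2, the constitutive endothelial ICAM, was far more specific, at 261.5, 111, 212 and 181 CPM against 0.162 to 0.612 CPM (9.13 ± 0.23).

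Sialomucins and the endothelial cell adhesion molecule Mcam followed Icam2. Cd34 averaged 658 ± 161 CPM against 4.29 ± 2.27 CPM (SD, n = 4), Podxl 214 ± 50.9 against 4.87 ± 1.13, and Mcam 489.8 ± 59.3 against 6.34 ± 2.71, with log2 differences of 7.28, 5.36 and 6.24. The selectins were sparse. Selp (P-selectin) was called higher on 26 UMIs in 14 cells (6.53 ± 0.76). Sele (E-selectin) was called on 5 UMIs in 3 cells of OE-MLKL 1 and 2 (4.70 ± 1.36, edgeR adjusted p = 0.00925), a call lost without OE-MLKL 2, where the difference was 2.21. Madcam1, the mucosal addressin, had 27 UMIs in 12 cells. Vcam1 was at 75.7, 78.4, 91.1 and 91.8 CPM in endothelial cells and at 122, 17.6, 28.9 and 92.1 CPM in the others, overlapping ranges with no call (0.42 ± 0.30, edgeR adjusted p = 0.311). It was called higher without OE-Vector 1 (0.99), with keratin-positive cells left out (0.63) or with stromal-marker cells left out (0.64). Alcam (-1.20, edgeR adjusted p = 0.11) and Cd99l2 (-0.43) were not called, although Alcam was called lower without OE-MLKL 3 (-2.04) and against all other cells (-2.38).

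**Figure D2:**
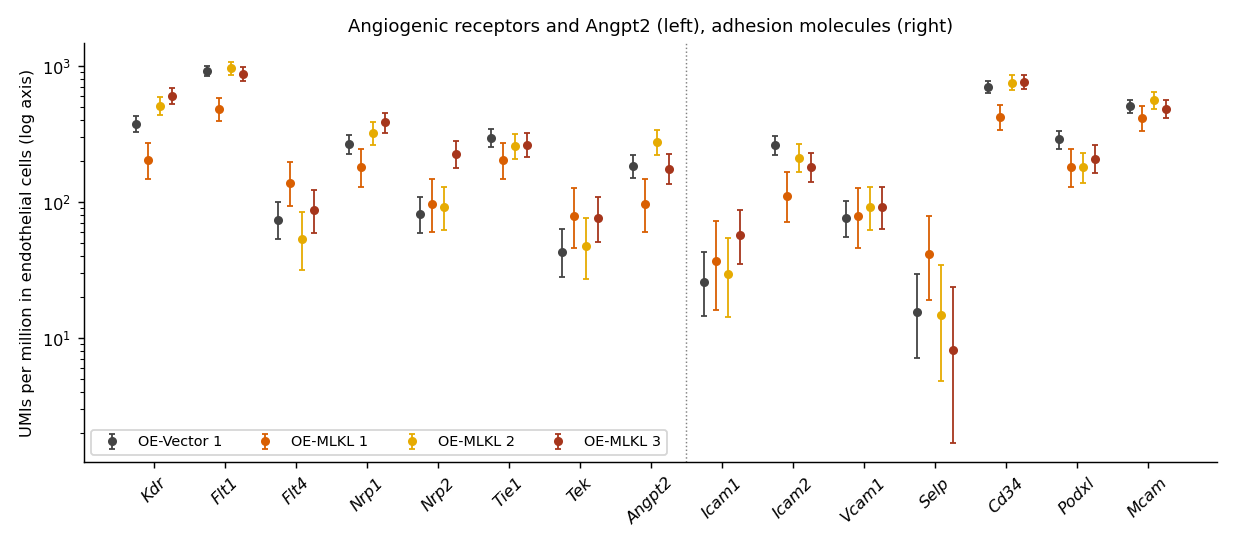
Levels of VEGF and angiopoietin receptors and Angpt2 (left) and adhesion molecules (right) in endothelial cells, in CPM on a log axis, 1 point for each library with exact 95% Poisson intervals, and with Kdr taken from cells chosen without Kdr. The library labelled OE-Vector lies within the range of the other 3 for genes that include Kdr, Flt1, Flt4, Nrp1, Angpt2 and Mcam, with Flt1 at 924 CPM against 479 to 961 CPM.

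Transcription factors of the endothelial lineage were called higher in 13 of 14 cases, with a median log2 difference of 5.40. Sox17 (10.82 ± 0.67) and Sox18 (10.38 ± 0.35), both needed for vessel formation, had the widest gaps. Elk3, an ETS factor, had a narrow one (1.07 ± 0.14), and Klf4, a shear-responsive factor also used by epithelium, was called lower (-0.78 ± 0.15, edgeR adjusted p = 0.000219), a call lost with no library block (-0.80). Junction genes were called higher in 8 of 9 cases, from Cldn5 down to the scaffold Tjp1 (0.52 ± 0.13), with the adhesion molecule Esam at 686.5, 383, 685 and 642.5 CPM against 0.596 to 1.15 CPM. The Tjp1 call was lost with no library block (0.54). Of 12 basement membrane genes 10 were called higher. Nidogen-2 (Nid2) averaged 200.5 ± 31.8 CPM against 1.16 ± 0.512 CPM and laminin alpha 4 (Lama4) 389.6 ± 159 against 4.10 ± 2.99 CPM, while Col18a1, the parent of endostatin, overlapped between the cell kinds (541 ± 217 and 421 ± 184 CPM, edgeR adjusted p = 0.205), although it was called higher against all other cells (log2 difference 0.63) and without OE-Vector 1 (0.50).

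In the Notch list 7 of 11 genes were called higher, led by the tip cell ligand Dll4 (121 ± 43.7 against 0.359 ± 0.194 CPM, log2 difference 8.36) and the receptor Notch4 (6.35). The common effectors Hes1 (-1.10 ± 0.16) and Rbpj (-1.50 ± 0.21) were called lower. In the TGF-beta and BMP list 6 of 9 were higher, with the endothelial receptors Acvrl1 (6.24) and Eng (5.54) on top, and the inhibitors Smad6 (-2.39, on 3 endothelial UMIs) and Smad7 (-1.23, edgeR adjusted p = 8.51e-06) were lower. The Smad6 call was lost with DESeq2 (-2.38) and in cells with under 5% mitochondrial UMIs (-2.33). Of 11 genes of vascular tone and haemostasis 7 were higher, with nitric oxide synthase Nos3 at 139, 134, 153 and 105 CPM against 0.184 to 0.428 CPM and the endothelin receptor Ednrb at a log2 difference of 8.22, while thrombomodulin (Thbd, -0.48, edgeR adjusted p = 0.204) was called lower only without OE-MLKL 1 (-0.85).

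Among chemokines, Cxcl12 averaged 71.0 ± 34.6 CPM against 2.54 ± 1.01 CPM (log2 difference 4.75), and the neutrophil attractants Cxcl2 (-1.82) and Cxcl5 (-2.57) were called lower, giving 3 higher and 3 lower of 9. MHC class I genes were called higher in 11 of 14 cases, and MHC class II genes in 2 of 7, beside 14.1% of all genes tested. The class II genes summed to 1246, 327, 385 and 1083 CPM in endothelial cells. Their sums were 570, 209, 232 and 1192 CPM in the other Ptprc-negative cells and 3215, 1282, 1459 and 4422 CPM in the free RNA. H2-Q6 (5.37) and H2-Q7 (5.21) led the class I list, but these near-identical paralogs share reads and their separate values are uncertain. The interferon response list had 11 of 18 genes higher, led by Cxcl9, a T cell attractant (3.69 ± 0.29), and Rsad2, an antiviral enzyme (3.56 ± 0.37). Necroptosis genes were higher in 4 of 5 cases, with the kinase Ripk3 at 58.5, 23.1, 32.3 and 29.7 CPM against 1.39 to 2.72 CPM (4.21 ± 0.44), Casp8 at 1.83 ± 0.21, and Mlkl itself just past the threshold (0.82 ± 0.31, edgeR adjusted p = 0.0469). The Mlkl call was lost under 8 alternatives, with differences of 0.66 to 0.94: without OE-Vector 1, OE-MLKL 2 or OE-MLKL 3, with 3 marker UMIs, in cells with under 5% mitochondrial UMIs (0.67), with no filter on low counts, with no library block and with stromal-marker cells left out (0.83).

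Hypoxia genes went both ways, 5 higher and 5 lower of 11. The glycolytic regulator Pfkfb3 (4.52 ± 0.22) and adrenomedullin (Adm, 4.10 ± 0.48) were high in endothelial cells and the hexokinase Hk2 (-1.77 ± 0.29) was low. Of 16 cell cycle genes none was higher and 9 were lower, and the list summed to 542, 438, 599.7 and 948 CPM in endothelial cells. Without the top cell of each library the sums were 434, 194, 488 and 631 CPM, as 63 of the 95 UMIs in OE-MLKL 1 lay in 1 cell. Immediate early and heat shock genes were mostly lower, 8 of 12 with 1 higher, with Fos at -1.46 ± 0.12 and Egr1 at -1.74 ± 0.13.

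**Figure D3:**
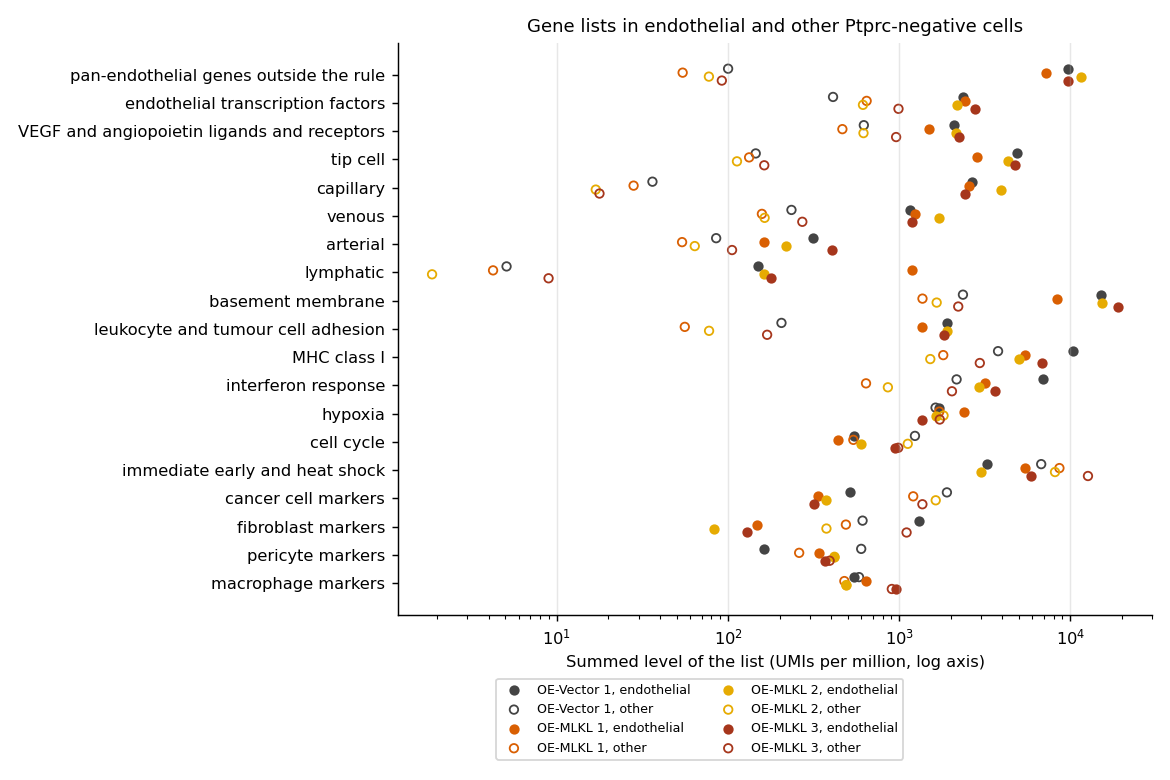
Summed level of each of 19 gene lists in each library, in CPM on a log axis, with filled points for endothelial cells and open points for the other Ptprc-negative cells. The pan-endothelial list lies at 7238 to 11505 CPM against 54.3 to 100.05 CPM, and the lists of cell cycle and immediate early genes lie lower in endothelial cells in all 4 libraries.

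Genes of tip cells and capillaries had the highest summed levels of the 5 vessel subtype lists in each library. Of 12 tip cell genes 11 were called higher than in the other Ptprc-negative cells, and the list summed to 4898, 2854, 4342 and 4776 CPM. Igfbp3, an insulin-like growth factor binding protein, supplied much of this, at 2438, 1351, 1605 and 2195 CPM (log2 difference 9.58 ± 0.24). Esm1, endocan, a tip cell proteoglycan, was uneven, at 146, 13.8, 120.5 and 113 CPM and in 35 cells in all. Unc5b, a netrin receptor, had a narrow gap (0.85 ± 0.20). The list level was lowest in OE-MLKL 1, where Esm1 was also lowest. The cell of 52084 UMIs in that library held 6 of its 619 tip cell UMIs.

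The capillary list (7 of 8 tested called higher) summed to 2665, 2573, 3930 and 2440 CPM, led by Gpihbp1, and also held the fatty acid transporter Cd36 (21.1 ± 13.8 against 1.69 ± 1.70 CPM, log2 difference 3.88). The venous list (6 of 8) summed to 1163, 1236, 1717 and 1196 CPM. In it, von Willebrand factor (Vwf) stood at 518, 254, 661 and 564 CPM against 0.242 to 0.684 CPM (10.19 ± 0.22), and the apelin receptor Aplnr averaged 126.5 ± 57.0 CPM against 0.115 ± 0.0190 CPM (9.85 ± 0.36). The arterial list (5 of 7 tested) was lower, at 313, 161, 218 and 402 CPM. Its semaphorin Sema3g averaged 28.9 ± 26.5 CPM (6.25 ± 0.68), and Efnb2, the arterial ephrin, was not called (0.26 ± 0.16, edgeR adjusted p = 0.256) except against all other cells (0.62).

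The lymphatic list summed to 149.7, 1194, 162 and 178 CPM, and the high value of OE-MLKL 1 came from 1 cell. That cell, with 23087 UMIs, held 222 of the library's 259 lymphatic UMIs, and without it the level was 191 CPM, close to the others. Prox1, the master regulator of lymphatic identity, had 31 UMIs in 9 of the 133 cells (log2 difference 8.35 ± 0.83). At least 1 UMI of the list was found in 22, 15, 23 and 19 endothelial cells, and at least 2 in 42.9%, 34.8%, 34.0% and 50% of them, against at most 2.03% of the other Ptprc-negative cells. Thinned to 1000 UMIs a cell, the shares were 2.86%, 8.70%, 2.13% and 7.14%. The list includes Flt4, described above as a receptor of lymphatic and sprouting vessels, so passing it does not mark a cell as lymphatic.

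By cell, at least 2 UMIs of the tip cell list were found in 100%, 95.7%, 93.6% and 92.9% of endothelial cells, and of the arterial list in 74.3%, 34.8%, 38.3% and 71.4%. In the other Ptprc-negative cells, at their own depth, the shares were 32.3% to 44.7% for the tip cell list and 16.1% to 34.2% for the arterial list. OE-Vector 1 and OE-MLKL 3, with the higher arterial shares, also had the deeper cells. After every cell was thinned to 1000 UMIs, which all endothelial cells reached, the tip cell shares were 82.9%, 56.5%, 76.6% and 82.1% and the arterial shares 5.71%, 0%, 0% and 14.3%, and 0 of 23 and 0 of 47 cells are too few to show that arterial genes are absent. The thinned shares were 65.7%, 60.9%, 78.7% and 71.4% for the capillary list and 42.9%, 56.5%, 55.3% and 50% for the venous list. Tip cell and capillary shares summed to over 100% in each library, so cells passed for both, and no endothelial cell was assigned to a subtype.

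The second comparison set the endothelial cells of the 3 libraries labelled OE-MLKL against those of the library labelled OE-Vector. It was run in edgeR's quasi-likelihood test on the summed counts, with residual spread from the OE-MLKL libraries alone, and the lone OE-Vector library was assumed to vary like them. The filter on low counts let a gene in on 1 library alone. A gene that passed only through OE-Vector 1 could therefore only come out lower under the OE-MLKL label. Of 7018 genes tested, 3 were called higher (0.0427%) and 11 lower (0.157%) under the OE-MLKL label at a Benjamini-Hochberg adjusted p below 0.05, and 342 had an unadjusted p below 0.05. The number depended on single libraries, and without OE-MLKL 1, 2 or 3 it was 32, 32 and 93. With the 14 cells that carried at least 10 fibroblast and pericyte UMIs left out, a choice made after the data were seen, no gene was called of 6457 tested, 259 had an unadjusted p below 0.05, and DESeq2 on all cells called 3. The stromal cut was a fixed count of UMIs, not scaled to depth, and took OE-Vector 1 from 35 to 30 cells. Among those taken out were 1 cell of 41077 UMIs with 148 endothelial marker UMIs and 1 of 48950 UMIs with 179. The part of this lost depth in the lost calls was not tested. The number of calls thus rose under some settings and fell under others, and each call of the main test is described by the cells it rests on.

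Kdr (ENSMUSG00000062960, chr5:75932827-75978458, minus strand, GRCm38), which encodes VEGFR2, was compared in cells chosen without it. In 34, 23, 45 and 28 such cells its level was 375, 203, 508 and 602 CPM, with exact 95% Poisson intervals of 326 to 428, 147 to 272, 435 to 591 and 526 to 686. The libraries labelled OE-MLKL averaged 438 ± 209 CPM (SD, n = 3) and lay on both sides of OE-Vector 1, with OE-MLKL 1 below it and the other 2 above. The 23 cells of OE-MLKL 1 included the cell of 52084 UMIs, which had no Kdr UMI. The log2 difference was 0.18 ± 0.52 (SE, edgeR adjusted p = 0.999, unadjusted p = 0.728). Without OE-MLKL 3 the difference was -0.056.

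No gene was called among the 10 of the VEGF and angiopoietin list tested. Flt1 of OE-Vector 1 lay within the range of the 3 libraries labelled OE-MLKL, whereas its Tek lay below all 3 and its Tie1 above all 3. The log2 difference was -0.30 ± 0.51 for Flt1, 0.58 ± 0.51 for Tek and -0.33 ± 0.44 for Tie1 (edgeR adjusted p = 0.999 for each), and the list ran from -0.88 for Vegfa to 0.73 for Nrp2. No gene was called among the 9 adhesion molecules tested either. Icam1 was at 25.8 CPM in OE-Vector 1 and 41.0 ± 14.1 CPM (SD, n = 3) in OE-MLKL, a log2 difference of 0.63 ± 0.57, and Vcam1 was at 75.7 and 87.1 ± 7.56 CPM (0.17 ± 0.46). Icam2 (-0.66 ± 0.44), Podxl (-0.64 ± 0.43) and Mcam (-0.08 ± 0.47) had edgeR adjusted p-values of 0.999 as well. A missing call with standard errors of this size does not show that the levels were alike.

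Interferon response genes had lower values under the OE-MLKL label throughout the list. All 18 log2 differences were below 0 and their median was -1.43, where 46.1% of all genes tested were below 0 and the median was 0.05. At least Usp18 among them passed the low-count filter only through OE-Vector 1, so its sign was fixed in advance. Isg15 and Bst2 were called lower, 2 of 18 beside 0.157% of all genes, and 13 of the 18 had an unadjusted p below 0.05. Without the called genes, the other 16 were all below 0 with a median of -1.31. The list was chosen with earlier results of these libraries known, so its direction is a description.

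Isg15 (ENSMUSG00000035692), an interferon-induced ubiquitin-like protein, stood at 251 CPM in OE-Vector 1 and at 36.9, 58.8 and 35.1 CPM in OE-MLKL 1, 2 and 3. Its 146, 8, 20 and 13 UMIs lay in 21, 7, 10 and 9 cells, with at most 29, 2, 10 and 3 in 1 cell, and the labelled groups did not overlap (log2 difference -2.54 ± 0.43, edgeR adjusted p = 0.00633). The Isg15 call was lost with DESeq2 (-2.55) and with a filter at a mean of 20 UMIs (-2.50). Bst2 (tetherin), an interferon-induced membrane protein that holds budding viruses, stood at 996 CPM against 152, 249.9 and 308 CPM. It was found in 35 of 35 cells of OE-Vector 1 and in 13 of 23, 31 of 47 and 25 of 28 of the others, beside 61.6%, 37.1%, 37.5% and 51.0% of the other Ptprc-negative cells (-2.11 ± 0.45, edgeR adjusted p = 0.0436). The Bst2 call was lost without OE-MLKL 1 (-1.91), without OE-MLKL 2 (-2.18), in cells with under 5% mitochondrial UMIs (-2.03), with DESeq2 (-2.11) and with the filter at a mean of 20 UMIs (-2.06). Cmpk2, an interferon-induced mitochondrial nucleotide kinase outside the list, had 49, 3, 0 and 3 UMIs in 14, 2, 0 and 2 cells (-3.66 ± 0.70, edgeR adjusted p = 0.0158), a call lost with DESeq2 (-3.68), under the same mitochondrial limit (-2.58) and with stromal-marker cells left out (-3.54). With the 14 stromal-marker cells left out, the differences of Isg15 and Bst2 were -2.57 and -2.10, and neither was called. Cmpk2 passed the low-count filter only through OE-Vector 1, so its direction was fixed in advance and adds no support.

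Other members were lower by smaller or less certain amounts. Usp18, the deconjugase of ISG15, had 24, 0, 1 and 1 UMIs (-4.13 ± 1.43, edgeR adjusted p = 0.632), and was called with no filter on low counts (-4.16). The guanylate-binding protein Gbp2 was at 619 CPM against 456, 409 and 443 CPM (-0.54 ± 0.46), and the GTPase Iigp1 at 1005 against 761, 494 and 739.7 CPM (-0.63 ± 0.49), both with an edgeR adjusted p of 0.999. The list as a whole summed to 6956 CPM in OE-Vector 1 and 3167, 2934 and 3636 CPM in OE-MLKL, and the median endothelial cell was at 4789 against 976, 1185 and 1970.3 CPM. With the cell that held most of the list's UMIs left out of each library, the sums were 5775 CPM against 2076, 2296 and 3207 CPM. Within each library the cells spread widely, from 492 to 19696 CPM in OE-Vector 1 and from 0 to 27512 CPM in OE-MLKL 1.

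The same direction was seen outside the endothelial cells. In the other Ptprc-negative cells the interferon list summed to 2165 CPM in OE-Vector 1 and to 640, 859 and 2034 CPM in OE-MLKL, and in the barcodes of at most 100 UMIs that hold free RNA it summed to 2359 CPM and to 820, 1042 and 1783 CPM. OE-Vector 1 was close to OE-MLKL 3 in the other Ptprc-negative cells and well above it in the endothelial cells, and that contrast between cell kinds was not tested. The part of free RNA in the endothelial difference was not tested. No MHC class I gene was called in the main test, 13 of 14 being below 0 with a median of -0.91, and their sum was 10430 CPM in OE-Vector 1 and 5018 to 6822 CPM in OE-MLKL, beside 3783 CPM and 1519.7 to 2959 CPM in the other Ptprc-negative cells. Their immunoproteasome subunit Psmb9 (-1.43 ± 0.44, edgeR adjusted p = 0.402) and the transactivator Nlrc5 (-1.48 ± 0.56, edgeR adjusted p = 0.753) had the lowest values. All 7 MHC class II genes and all 5 necroptosis genes were below 0 with none called in the main test, beside the share of all genes below 0 given for the interferon list. The class II sum was 1246 CPM against 327, 385 and 1083 CPM, and in the free RNA 3215 CPM against 1282, 1459 and 4422 CPM. The necroptosis sum was 482 CPM against 161, 232 and 308 CPM, and in the free RNA 233 CPM against 113, 135 and 187 CPM. Among the necroptosis genes were the interferon-induced sensor Zbp1, at 120.4 CPM against 9.22, 35.3 and 54.0 CPM (-1.82 ± 0.50, edgeR adjusted p = 0.213), Casp8 (-1.39 ± 0.43, edgeR adjusted p = 0.412) and Mlkl (-0.42 ± 0.68). Without OE-MLKL 3 the differences of Psmb9 (-1.71), Zbp1 (-2.28) and Casp8 (-1.62) were called, and that of Zbp1 also with keratin-positive cells left out (-1.87) and with no filter on low counts (-1.87).

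**Figure D4:**
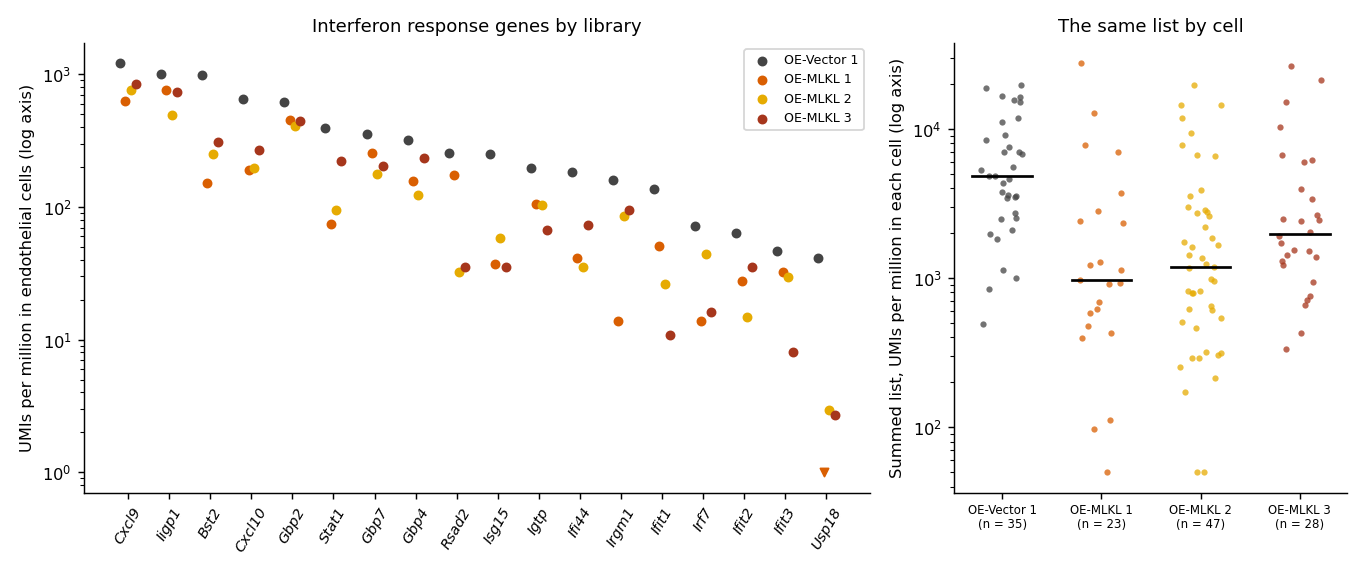
Levels of the 18 interferon response genes in endothelial cells by library (left, CPM on a log axis, a triangle marks 0 UMIs) and the summed level of the list in each endothelial cell (right, log axis, cells at 0 on the lower edge, bars at the medians). OE-Vector 1 lies highest for Isg15 and Bst2, and its median cell is at 4789 CPM against 976 to 1970.3 CPM.

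Promoter sequence gives context for this group, as interferon-induced genes often carry an interferon-stimulated response element upstream of their start. The letters GAAA, any 2 bases and GAAA again, a core of that element, were searched on both strands in the 250 bases before each start in RefSeq promoters of GRCm38.p6, allowing overlapping matches. They were found in 978 of 32851 such windows (2.98%) and for 10 of the 14 interferon list genes with a window, of 18 listed. Cmpk2 had no match, which says only that these letters are not in its window. The stretches for the 2 called genes of the list are shown 5′ to 3′ on the strand of the gene, with the matches in capitals, Isg15 from chr4:156200855-156200916 and Bst2 from chr8:71537567-71537622, both on the minus strand.
Isg15: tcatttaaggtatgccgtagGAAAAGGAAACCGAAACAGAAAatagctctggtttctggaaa
Bst2: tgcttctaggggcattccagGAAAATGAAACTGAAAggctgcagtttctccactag
A match is a description of the sequence and not evidence of binding in these cells.

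Of the other calls, Cd300lg was spread over many cells. It encodes nepmucin, a receptor of capillary and venular endothelium that binds lymphocytes, and it separated endothelial from other cells in the first comparison (10.77 ± 0.78). It had 1 UMI in OE-Vector 1 and 27, 52 and 10 UMIs in 14, 19 and 6 cells of OE-MLKL 1, 2 and 3. In CPM this was 1.72 against 124.5, 153 and 27.0, a ratio of 55.8 with a 95% counting interval of 9.76 to 2227 (edgeR adjusted p = 0.0158). The fitted log2 difference was 5.13 to 6.10 with 1 OE-MLKL library left out. OE-MLKL 3 was nearest to OE-Vector 1. The call was lost with DESeq2, with a filter at a mean of 20 UMIs and with stromal-marker cells left out (log2 differences 5.87, 5.64 and 7.97). No other gene of the capillary list was called.

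The fibroblast genes among the calls came from 1 cell of OE-Vector 1. Col3a1, a fibrillar collagen, had 236, 5, 3 and 5 UMIs, of which 223 lay in that cell (log2 difference -4.84 ± 0.48, edgeR adjusted p = 1.47e-06). Col1a2 had 167, 1, 12 and 4 UMIs (160 in 1 cell), Dcn 125, 11, 0 and 1 (124) and Col1a1 140, 6, 10 and 26 (132). Sfrp2 and Col14a1, which mark fibroblasts, had 49 and 38 UMIs, all in 1 cell, and none under the OE-MLKL label, at least 26.1-fold and 20.2-fold lower against a floor of 3 UMIs over the group. Igf1 (43, 2, 4 and 4 UMIs, 40 in 1 cell) and Sfrp1 (39, 0, 2 and 2 UMIs, 36 in 1 cell) had the same shape. This cell carried 15 UMIs of the 4 endothelial markers in 17648 UMIs, and with it and the other stromal-marker cells left out none of these genes was called. DESeq2 called only Col3a1, Col1a2 and Sfrp2 of them. Col3a1, Sfrp2, Col14a1, Igf1 and Sfrp1 passed the low-count filter only through OE-Vector 1, so their direction was fixed in advance.

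Myl9 and Mgp were called higher under the OE-MLKL label. Myl9, a myosin light chain of smooth muscle and pericytes, had 0, 16, 10 and 18 UMIs, at least 9.19-fold higher than OE-Vector 1, but 16 of the UMIs of OE-MLKL 1 and 15 of those of OE-MLKL 3 lay in 1 cell each. The call was lost without OE-MLKL 1, with DESeq2, in cells with under 5% mitochondrial UMIs and with stromal-marker cells left out. Mgp, matrix Gla protein, a calcification inhibitor secreted by several cell types, had 9, 34, 30 and 97 UMIs, and 66 of the 97 lay in 1 cell (3.37 ± 0.66, edgeR adjusted p = 0.0158). The Mgp call was lost with DESeq2 (3.40), with a filter at a mean of 20 UMIs (3.43) and with stromal-marker cells left out (3.21). Its level in the other Ptprc-negative cells was 279.5, 913, 525 and 355 CPM and in the free RNA 193, 680.4, 347 and 216 CPM, also lowest in OE-Vector 1, and their part in the endothelial value was not tested.

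**Figure D5:**
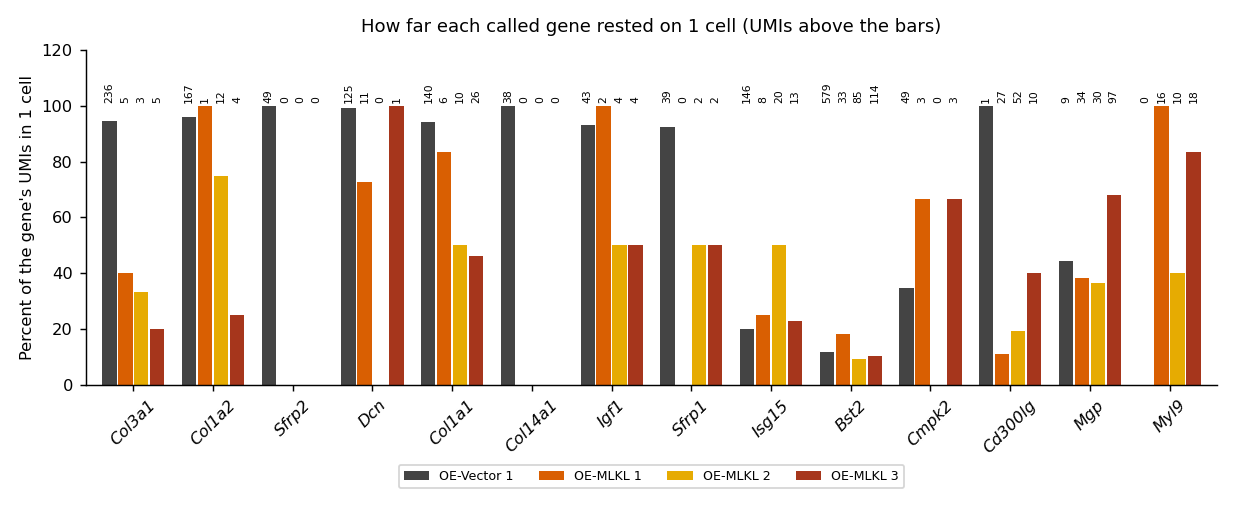
For each gene called between the labels, the percent of its endothelial UMIs in a library that lay in 1 cell, by library, with the UMI count printed above each bar. The bars of Col3a1, Col1a2, Dcn, Col1a1, Sfrp2, Col14a1, Igf1 and Sfrp1 in OE-Vector 1 are near or at 100%, whereas those of Isg15, Bst2 and Cmpk2 there are at 19.9%, 11.7% and 34.7%. Those of Cd300lg in OE-MLKL 1 and 2 are at 11.1% and 19.2%. In OE-MLKL 2, 10 of 20 Isg15 UMIs lay in 1 cell, as did 4 of 10 Cd300lg UMIs in OE-MLKL 3.

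The remaining lists showed no call between the labels. The 18 endothelial genes outside the rule had a median log2 difference of -0.05, the 12 tip cell genes -0.21, the 12 basement membrane genes -0.16 and the 9 Notch genes tested -0.01, near the 0.05 of all genes. Immediate early and heat shock genes had a median of 0.71, with 11 of 12 above 0, 3 at an unadjusted p below 0.05 and none called. Their sum was 3250 CPM in OE-Vector 1 and 5449, 3007 and 5861 CPM in OE-MLKL (4772 ± 1543 CPM, SD, n = 3), with OE-MLKL 2 below OE-Vector 1. In the other Ptprc-negative cells it was 6759 CPM against 8139 to 12682 CPM. The top endothelial cell of each library held 295 of 1889, 413 of 1182, 95 of 1023 and 500 of 2171 UMIs of the list. Without these cells the endothelial sums were 2947, 4666, 2862 and 4933 CPM. These top cells carried 17, 32, 4 and 15 keratin UMIs, so some may be doublets, which was not tested. The 14 cell cycle genes tested had a median of 0.20. OE-MLKL 3 had the highest sum, also without the top cell of each library, and 136 of its 351 UMIs lay in 1 cell.

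Kdr was not confined to the endothelial cells. Of all Kdr UMIs in cells, the endothelial cells held 72.9%, 14.8%, 62.5% and 45.5%, so in OE-MLKL 1 and OE-MLKL 3 most lay elsewhere. Outside the rule, 1, 21, 5 and 5 cells carried at least 3 Kdr UMIs, with 4, 147, 22 and 53 Kdr UMIs between them and median depths of 14961 to 25233 UMIs. Their mesothelial marker sum was 2378, 728, 489.7 and 618 CPM, against at most 36.9 CPM in endothelial cells, and Wt1, a mesothelial transcription factor, was at 238, 201, 275 and 245 CPM. Their fibroblast marker sum was 13560 to 35905 CPM, and Plvap and Cldn5 were at 0 in all of them. The 18 endothelial genes outside the rule summed to 753, 318, 490 and 427 CPM in these cells, Flt1 among them at 0, 72.1, 337 and 209 CPM, against 53.3 to 99.7 CPM for the list and 18.3 to 35.3 CPM for Flt1 in the remaining Ptprc-negative cells. The endothelial part of the Kdr counts thus differed widely between the 4 libraries.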

How the data were processed

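Single-cell RNA-seq (10x Genomics 3′ chemistry) was made from dissociated orthotopic KPC tumours, and 4 unfiltered UMI count matrices of 32285 genes were used as deposited. The submitters' processing notes name Cell Ranger 2.1.1 and mm10, whereas the matrix headers of the deposited counts name version 7.1.0, so the version behind the counts is uncertain. The counts are raw, with no normalization by the authors. Members and gene lists were chosen with earlier results of these data known.

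Cells and endothelial cells were selected by the rule given at the start of the results, without removal of doublets by simulation. Counts were summed per library and tested in edgeR 4.0.16 (R 4.3.3) with filterByExpr, TMM scaling, the quasi-likelihood test and Benjamini-Hochberg adjustment. The 10 genes of the rule were left out of the tests. Standard errors of log2 differences were derived from the quasi-likelihood statistic. Endothelial and other Ptprc-negative cells were compared with library as a block. Libraries labelled OE-MLKL and OE-Vector were compared with no covariate. Those p-values rest on the spread among the OE-MLKL libraries alone, with OE-Vector 1 assumed to vary like them. Shares were compared by exact permutation tests, and intervals were exact binomial or Poisson intervals. Free RNA was read from barcodes of at most 100 UMIs. Python 3.11.15 with numpy 2.4.6, scipy 1.17.1 and pandas 2.3.3 was used for cell selection, levels and thinning.

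Genes named were all members of the VEGF and angiopoietin list and the adhesion list that are given values, up to 4 of each other list (the 2 highest and 2 lowest log2 differences), the 10 highest (mean of at least 50 CPM) and 5 lowest called genes of the first comparison, every called gene of the second, up to 20, and the markers and Mlkl. The 32 gene lists held 314 entries. Promoters and gene positions come from RefSeq and GENCODE tables of GRCm38. Alternatives were 3 or 6 marker UMIs, cells of at least 1000 UMIs, a mitochondrial limit of 5%, leaving out keratin-positive or stromal-marker cells, all other cells as the reference, other scalings and filters, DESeq2 1.42.0, no block, and each library left out in turn. Part of the genotype of the mice that gave the KPC cells is not reported here.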

Additional observations from a re-analysis of the deposited data

How the results depend on the processing

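The endothelial share kept its direction under every alternative run, with an exact permutation p of 0.25 to 1. In endothelial against other Ptprc-negative cells, 4587 genes were called, 3656 to 4408 with 1 library left out and 2951 (1606 higher, 1345 lower) with no replicate block. Named genes there changed sign in 2 cases, Nrp2 without OE-MLKL 3 (-0.043, and at most 0.22 with another library left out) and Vcam1 against all other cells (-0.22). With 1 library left out, further called differences there moved by over 1.5 times in either direction, to 5.66 for Vegfc (without OE-MLKL 3), 2.21 and 6.46 for Sele (OE-MLKL 2, 3), 5.77 and 7.21 for Selp (OE-MLKL 1, 3), 10.07 for Madcam1 (OE-MLKL 1), 8.77 for Esm1 (OE-MLKL 2), 3.26 and 4.98 for Cd36 (OE-MLKL 2, OE-Vector 1), 7.75 and 9.09 for Prox1 (OE-MLKL 1, 3), -3.11 for Smad6 (OE-Vector 1), 2.84 for Rsad2 (OE-MLKL 1) and 3.21 for Adm (OE-MLKL 2), and between the labels to -3.05 and -4.31 for Cmpk2 (OE-MLKL 2, 1), -5.13 for Col1a2 (OE-MLKL 2) and -7.06 and -3.24 for Dcn (OE-MLKL 1, 2). No paired analysis was possible because the labels give no pairing of OE-MLKL with OE-Vector tumours, and leaving out the lone OE-Vector library leaves no comparison. Between the labels, the 14 calls became 24 with 3 marker UMIs, 23 with 6, 3 with DESeq2, 52 without keratin-positive cells, 2 with a mean of at least 20 UMIs, 54 with no filter, 0 without stromal-marker cells (259 genes at an unadjusted p below 0.05, chosen after seeing the data) and 32 to 93 with 1 OE-MLKL library left out. In cells with under 5% mitochondrial UMIs 12 genes were called, 8 of them among the 14. No alternative turned the direction of a called gene. The Kdr difference ran from -0.056 to 0.49 with 1 library left out, lowest without OE-MLKL 3. The causes were not tested. Thinned to 1000 UMIs, the shares of cells with at least 2 UMIs were 82.9%, 56.5% and 76.6% (tip cell, OE-Vector 1, OE-MLKL 1 and 2), and in all 4 libraries 5.71%, 0%, 0% and 14.3% (arterial), 42.9%, 56.5%, 55.3% and 50% (venous), 65.7%, 60.9%, 78.7% and 71.4% (capillary) and 2.86%, 8.70%, 2.13% and 7.14% (lymphatic). Depth limits low genes most, as sums rest on 23 to 47 cells a library.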
